A study of Mus musculus with 28 samples.

Results

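Integrins, cadherins and claudins are the surface proteins with which cells hold on to the matrix and to each other, and here their transcripts were followed through the mouse germ line and the stem cell lines made from it. The genes were chosen by symbol: integrin alpha and beta subunits (with 3 integrin-related genes whose symbols begin the same way), numbered cadherins and numbered claudins, each read from its brightest array probe. The symbols matched 56 genes, of which 55 were measured among 38727 genes and unnamed probe targets on the array: 14 cadherins, 17 claudins, 14 integrin alpha subunits, 7 integrin beta subunits and the 3 integrin-related genes. The probe of Cldn10 was left out as a non-uniform spot, and Cdh2 and Cdh3 were not analysed here.

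Cadherins join like cells to like through calcium-dependent contacts and connect to actin through catenins. Claudins are the membrane proteins that form the strands of tight junctions and set what passes between epithelial cells. Integrins are pairs of an alpha and a beta subunit that bind laminin, fibronectin and other matrix proteins, so an alpha subunit reaches the surface only with a partner beta subunit. Migrating mouse germ cells need beta 1 integrin to settle in the gonad, E-cadherin (Cdh1) is the cadherin of the early germ line and of naive pluripotent cells, and Itga6 is a surface marker used to enrich spermatogonia.

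The series held 28 one-colour Agilent arrays in 14 groups of 2. Primordial germ cells (PGC, the embryonic founders of eggs and sperm) of both sexes were collected from embryos of 10.5, 13.5 and 17.5 days, written E10.5, E13.5 and E17.5, from the strain labelled BDF1 x TgN(deGFP)18Imeg, which carries a green fluorescent protein transgene. The spermatogonia and the cells labelled oogonia came from BDF1 x Tg(Mvh-Venus)1Rbrc mice, whose age the labels do not give. Embryonic germ (EG) lines, which are pluripotent cultures derived from PGC, were a female and a male line of Rb(X.2)2Ad X 129/Sv, with a source labelled 12.5 days post coitum. Embryonic stem (ES) lines were the female line no5 of 129/Sv and the male line TMA5, a hybrid of TgN (deGFP)20Imeg and MSM/Ms. Germline stem (GS) cells, which are cultured spermatogonial stem cells, were a male DBA/2 line, and the whole adult testis was from C57BL/6J. Each kind of line is thus 1 line per sex, its arrays are repeats of that line, and the labels do not say whether the replicates of any group were separate animals or cultures, so every p-value measures only the spread between these arrays, which may be technical. Sorting and feeder use are not described in the labels, and in RNA from many cells, fewer cells of a type and less RNA per cell cannot be told apart.

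Levels are log2 intensities relative to the 75th percentile of 7227 probes that were well above background on every array, so 0 means as bright as that percentile. A level says how one probe compares between arrays, and no member's level is set against another's. The marker sums add the linear levels of several probes, so the brightest probes weigh most in them. A probe counted as well above background where the scanner software flagged it so, and such probes made up 17.8% of the probes on the first male E10.5 array and 76.8% on the first testis array. A faint member therefore had more chance of being seen in testis and GS cells than in PGC. The germ cell markers summed to between 4.43 and 40.5 on the linear scale in PGC and gonia. In EG and ES cells they summed to between 0.667 and 1.06. The pluripotency markers summed to between 19.9 and 27.0 in EG and ES cells. Their sums in PGC lay between 18.04 and 28.89 at E10.5, 10.04 and 20.42 at E13.5, and 0.1995 and 7.715 at E17.5. In gonia they lay between 0.466 and 2.506. The pluripotency sums of EG and ES cells thus overlapped those of E10.5 and E13.5 PGC. Transcripts that serve as markers of the gonad's own tissue were also seen. The sum of 15 Sertoli and pregranulosa markers was 9.64 and 4.79 on the male E17.5 arrays and 0.262 and 0.473 on the female ones.

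The promoters of 4 members that carry the main contrasts are shown with their CpG content. Cldn11 was brightest in testis, Cldn18 and Itga2b in male E17.5 PGC and spermatogonia, and Cldn4 in EG and ES lines. Each stretch runs from 250 bases before to 50 bases after the annotated start on the gene's strand (RefSeq, build GRCm38.p6), with every CG dinucleotide in capitals; CG reads the same on either strand. Cldn11, the tight junction protein of Sertoli cells, starts in a promoter with 24 CG at chr3:31149670-31149969 on the plus strand, a number reached by 20.0% of 32851 promoters. Cldn18, a claudin of stomach and lung epithelium, has 2 annotated starts on the minus strand, one at chr9:99710014-99710313 with 10 CG (43.5% of promoters have as many or more) and one at chr9:99717218-99717517 with 9 CG (45.8%). Which of these starts the array probe reads was not examined. Cldn4, a claudin of epithelia, has 9 CG (45.8%) at chr5:134946885-134947184 on the minus strand. Itga2b, the alpha subunit of the platelet fibrinogen receptor, has 6 CG (56.4%) at chr11:102469834-102470133 on the minus strand.
Cldn11: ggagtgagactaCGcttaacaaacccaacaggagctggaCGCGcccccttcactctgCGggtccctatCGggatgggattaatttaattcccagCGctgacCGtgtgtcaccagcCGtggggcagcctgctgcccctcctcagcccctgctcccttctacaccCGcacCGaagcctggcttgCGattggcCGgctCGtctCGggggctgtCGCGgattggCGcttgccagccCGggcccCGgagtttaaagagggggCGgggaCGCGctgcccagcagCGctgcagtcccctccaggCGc
Cldn18, first start: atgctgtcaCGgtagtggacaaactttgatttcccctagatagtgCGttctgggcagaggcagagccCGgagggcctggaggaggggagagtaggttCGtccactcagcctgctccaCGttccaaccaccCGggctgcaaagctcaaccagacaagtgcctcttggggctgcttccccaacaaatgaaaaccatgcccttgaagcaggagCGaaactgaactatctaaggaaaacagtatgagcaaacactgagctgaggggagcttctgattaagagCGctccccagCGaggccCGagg
Cldn18, other start: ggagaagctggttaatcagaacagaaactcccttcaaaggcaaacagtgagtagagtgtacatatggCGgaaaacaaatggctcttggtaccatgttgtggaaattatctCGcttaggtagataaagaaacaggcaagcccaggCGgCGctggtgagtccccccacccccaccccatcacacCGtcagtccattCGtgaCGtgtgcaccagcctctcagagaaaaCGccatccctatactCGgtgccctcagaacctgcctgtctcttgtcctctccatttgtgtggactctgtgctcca
Cldn4: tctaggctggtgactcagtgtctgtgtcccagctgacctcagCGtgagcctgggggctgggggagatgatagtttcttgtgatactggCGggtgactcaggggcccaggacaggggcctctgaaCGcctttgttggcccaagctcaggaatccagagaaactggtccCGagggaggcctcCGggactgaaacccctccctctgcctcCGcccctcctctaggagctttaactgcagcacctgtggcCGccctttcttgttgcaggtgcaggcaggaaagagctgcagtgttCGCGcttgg
Itga2b: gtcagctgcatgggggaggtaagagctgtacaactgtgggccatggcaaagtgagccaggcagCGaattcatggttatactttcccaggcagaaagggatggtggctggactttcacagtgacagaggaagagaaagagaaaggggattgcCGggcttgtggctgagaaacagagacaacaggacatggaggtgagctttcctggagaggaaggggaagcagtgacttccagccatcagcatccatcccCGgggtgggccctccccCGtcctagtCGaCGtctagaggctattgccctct
Across the 39 members with a promoter in the table (48 promoters), the number of CG ran from 2 to 30 with a median of 10, against a median of 7 over all promoters of the same length.

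Of the 55 members, 2 were seen everywhere. Cdh1 and Itgb1 (the beta subunit shared by most laminin and fibronectin receptors) were well above background on both arrays of all 14 groups. The members divided into 12 that were seen on both arrays of at least 10 groups, 22 in 2 to 9 groups, 10 in 1 group and 11 in none. Of the 10, 5 were seen on both arrays in testis alone (Cdh26, Cdh5, Cldn13, Itga2, Itgad). On the same count 4 were seen in GS cells alone (Cdh10, Cdh24, Cdh6, Itgb1bp2) and 1 in female ES cells alone (Cldn1). Single arrays of other groups also measured some of these, among them Cldn13, Itgad and Cdh10. The 11 were Cdh16, Cdh4, Cdh7, Cdh8, Cldn17, Cldn2, Cldn8, Itga3, Itgam, Itgb2l and Itgb6, and of these Cdh7, Cldn17 and Cldn2 were above background on no array.

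How many members were seen on both arrays differed widely between groups, as did the share of all genes seen on both arrays, which is given in parentheses. E10.5 PGC showed 3 members in males (16.9% of all genes) and 5 in females (22.5%). E13.5 PGC showed 10 in males (26.5%) and 14 in females (34.8%), and E17.5 PGC 20 in males (39.4%) and 10 in females (31.5%). Spermatogonia showed 18 (39.2%) and oogonia 17 (43.8%). EG cells showed 27 in the male line (54.2%) and 21 in the female line (52.9%), and ES cells 16 (41.4%) and 28 (55.6%). GS cells showed 38 (66.4%) and testis 35 (73.7%).

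**Figure D1:**
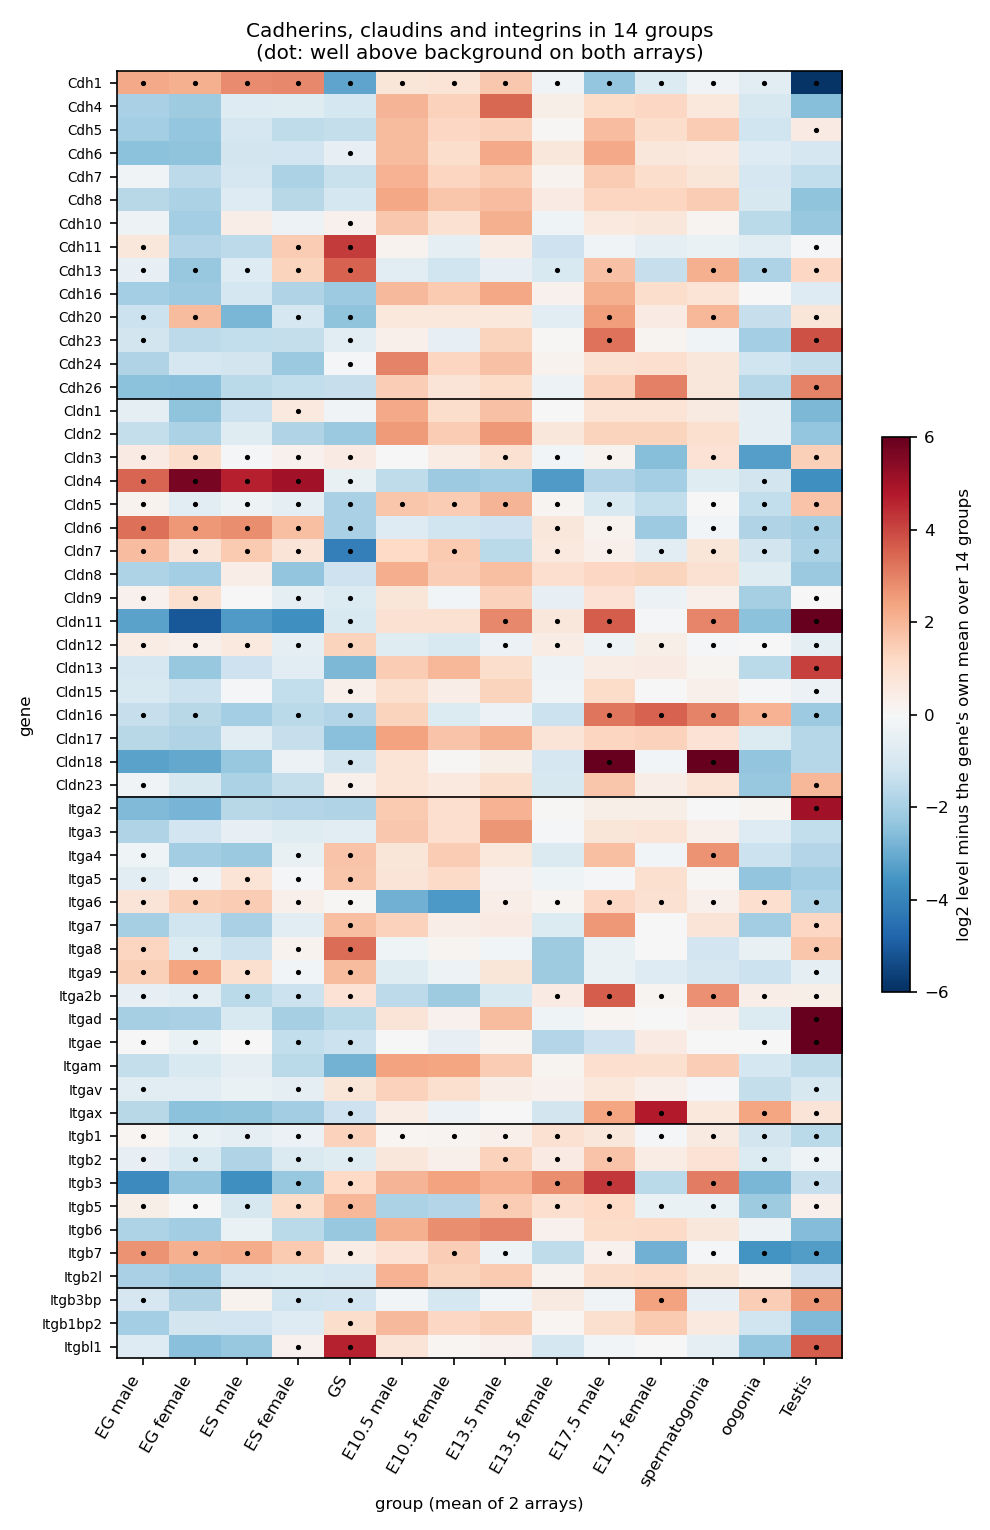
Mean log2 level of each of the 55 members in the 14 groups, minus that gene's own mean over the groups (colour; rows are genes by family, columns are groups of 2 arrays). A dot marks a member well above background on both arrays, and cells without a dot carry no order. Cdh1 and Itgb1 have a dot in all 14 columns, and Cldn4 is reddest in the 4 columns of EG and ES lines.

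Cdh1, E-cadherin, gave a wide run of levels. Its mean was -0.22 ± 0.08 in male and -0.11 ± 0.17 in female E10.5 PGC, 0.69 ± 0.11 and -1.16 ± 0.51 at E13.5, and -3.28 ± 0.55 and -1.77 ± 0.55 at E17.5 (SD, n = 2 each). Spermatogonia stood at -1.16 ± 0.15 and oogonia at -1.61 ± 0.38. The EG and ES lines were all above 0, with 1.33 ± 0.03 and 1.17 ± 0.52 in male and female EG cells and 1.90 ± 0.11 and 1.91 ± 0.20 in male and female ES cells. GS cells, at -4.14 ± 0.87, and testis, at -6.85 ± 0.35, lay at the low end. The arrays of GS cells (-4.75 and -3.52) overlapped those of male E17.5 PGC (-3.66 and -2.89).

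Itgb1 varied less. Its group means ran from -3.06 ± 0.10 in testis and -2.52 ± 0.22 in oogonia to -0.50 ± 0.03 in female E13.5 PGC and -0.02 ± 0.82 in GS cells (SD, n = 2 each). The GS arrays differed from each other by more than most groups did, at 0.56 and -0.60. The remaining 10 groups lay in between. Itga6, a laminin-binding partner of Itgb1 and Itgb4, lay between -1.16 and 0.30 in every group but E10.5 PGC, where it was at -4.10 ± 0.05 in males and -4.66 ± 0.90 in females, and testis, at -3.07 ± 0.05.

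The first comparison asks what changed in PGC between arrival in the genital ridge and the time after gonadal sex is set. In E13.5 over E10.5 PGC, 15 members could be tested, and 4 were higher and 2 lower (limma, adjusted p under 0.05), or 40.0%, against 31.8% of all genes tested (21.8% higher and 9.96% lower). The integrin subunits Itga6, Itgb5 and Itga2b rose with Cldn12, while Itgb7 and Cldn7 fell. The members' median change was 0.45 and the median over all tested genes 0.24.

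Itga6 had levels of -0.89 and -0.82 in male and -1.32 and -0.84 in female E13.5 PGC, against -4.07 and -4.14 in male and -5.30 and -4.03 in female E10.5 PGC. All 4 later arrays lay above all 4 earlier ones by more than 2 log2 units, although the first replicates at E10.5 were not well above background. The change was 3.42 ± 0.30 (log2 ± SE, limma adjusted p 1.14e-06). The first replicates of all PGC groups were scanned on 1 day and the second replicates on another, and within the second day, when all 4 arrays measured it, Itga6 changed by 3.25.
Itgb5, a partner of the alpha v subunit in vitronectin binding, stood at -0.91 and -0.94 in male and -1.45 and -1.45 in female E13.5 PGC, against -5.26 and -3.47 in male and -4.93 and -3.47 in female E10.5 PGC. The stages did not overlap, and within E10.5 the first replicate of each sex was the lower one and not well above background. The change was 3.10 ± 0.45 (adjusted p 8.71e-05), and 2.28 within the second day, when all 4 arrays measured it. Itga2b rose by 1.64 ± 0.31 (adjusted p 0.000791) and Cldn12, a claudin without the usual PDZ-binding tail, by 0.86 ± 0.23 (adjusted p 0.00919). Neither was well above background on the first E10.5 arrays, and Itga2b also not on the second male E13.5 array. For Itga2b the size is therefore uncertain, since the lowest level that counted as well above background on the first male E10.5 array (-3.58) lay above all its E13.5 levels.

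Itgb7, which pairs with Itga4 or Itgae in lymphocytes, was at -4.48 and -4.56 in male and -5.93 and -5.57 in female E13.5 PGC, against -3.60 and -3.06 in male and -2.70 and -2.78 in female E10.5 PGC. Every E13.5 array was below every E10.5 array, and the change was -2.10 ± 0.37 (adjusted p 0.000519). Cldn7, an epithelial claudin, changed by -1.91 ± 0.29 (adjusted p 0.000149), with its lowest arrays in male E13.5 PGC. Each of these 2 was not well above background on the first male E10.5 array and on 1 E13.5 array. Cdh1 (-0.07, adjusted p 0.877) and Itgb1 (0.48, adjusted p 0.137) did not pass the test, and for Cdh1 the males were higher and the females lower at E13.5 than at E10.5, so the change averaged over the sexes was near 0. Of the partner genes, 4 of 10 matrix ligands tested rose, led by the laminin chain Lama1 (2.90), and 3 of 4 desmosome genes fell, led by Perp (-2.37). Tight junction partners went both ways, with 3 higher and 4 lower of 11, including Jam3 (1.59) and Jam2 (-1.86), and Nectin2, a cell adhesion molecule that binds afadin, changed by -2.28. Of the Sertoli and pregranulosa markers, 4 of 10 tested were higher at E13.5 and none lower, and their part in these changes was not tested. Cldn12 lost its call without the first female E10.5 array (0.66, adjusted p 0.0511), and under normexp background correction, where 2 members were higher and 2 lower, Itga2b (-0.19) and Cldn12 (-0.20) turned sign.

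**Figure D2:**
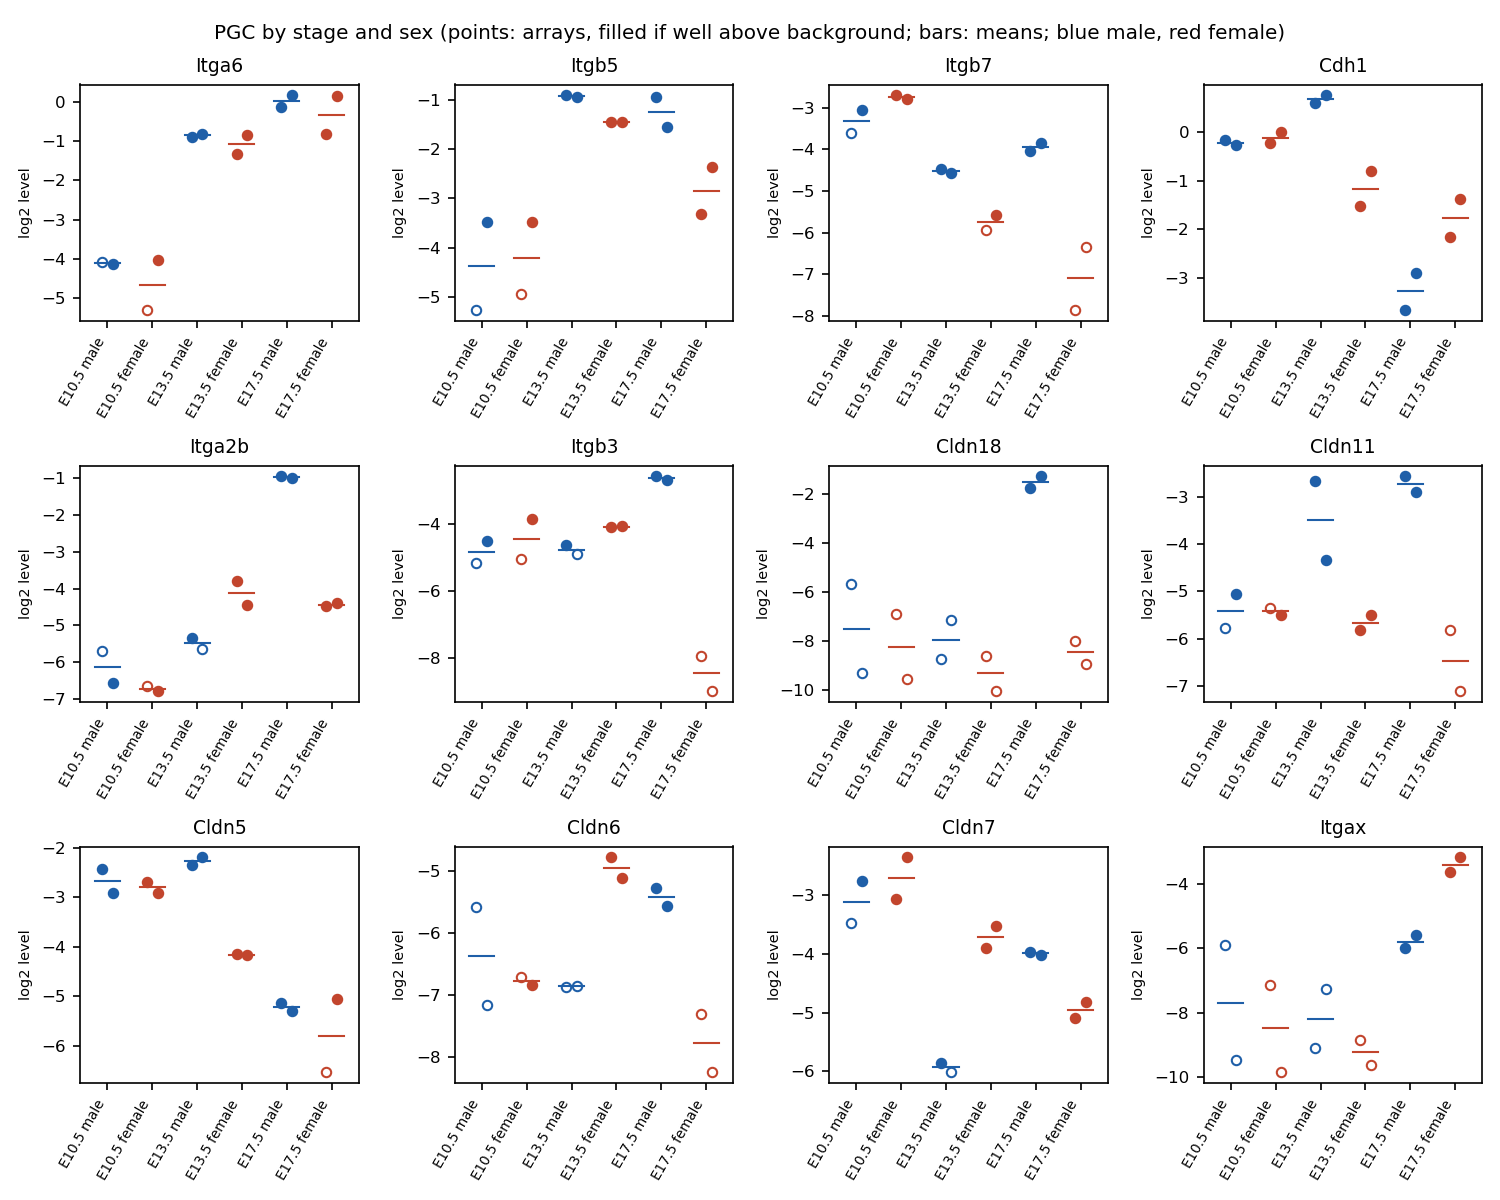
Log2 level of 12 members on each PGC array (vertical axis; points are arrays, filled where well above background, bars are means of 2 arrays, blue is male and red female) at E10.5, E13.5 and E17.5. Itga6 and Itgb5 step up after E10.5 in both sexes, and Cldn18, Itga2b and Itgb3 are highest in males at E17.5.

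From E13.5 to E17.5 female germ cells enter meiotic prophase while male germ cells stop dividing, so stage was compared within each sex. In females, 17 members were tested in E17.5 over E13.5 PGC, with 2 higher and 6 lower, or 47.1%, against 32.6% of all genes tested (18.1% higher and 14.5% lower). Itgax and Cldn16 rose, and Itgb3, Cldn6, Cldn3, Cldn5, Cldn7 and Itgb1 fell. Over the members tested the median change was -0.61, and over all genes 0.11. The split was 2 higher and 3 lower in the deposited value table and 2 higher and none lower under normexp correction.

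Itgax, the CD11c integrin alpha subunit of dendritic cells, was at -3.62 and -3.17 in female E17.5 PGC, against -8.84 and -9.62 in female E13.5 PGC, where neither array was well above background. It was at least 14.5-fold higher (5.83 ± 1.11, adjusted p 0.000917). Such bounds compare the brighter group with the lowest signal that counted as well above background on the other group's arrays, or the probe's own signal if higher. Cldn16, the claudin of magnesium reabsorption in the kidney, stood at -3.70 and -4.14 in female E17.5 PGC, against -7.59 and -9.87 in female E13.5 PGC, and was at least 10.1-fold higher (4.81 ± 0.77, adjusted p 0.000218). In both genes the E17.5 arrays alone were well above background.

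Itgb3, the beta subunit of the vitronectin and platelet fibrinogen receptors, was at -7.95 and -9.01 in female E17.5 PGC, neither well above background, against -4.08 and -4.05 in female E13.5 PGC. It was at least 5.19-fold lower (-4.41 ± 0.59, adjusted p 4.06e-05). Cldn6, a claudin of early embryonic epithelia, was at least 2.83-fold lower (-2.84 ± 0.43, adjusted p 0.000131) and Cldn3 at least 2.45-fold lower (-2.40 ± 0.55, adjusted p 0.00359). The falls of Cldn5 (-1.64 ± 0.60, adjusted p 0.0456, or 0.0505 with the replicate number as a block; 1 of the 2 E17.5 arrays well above background), Cldn7 (-1.24 ± 0.41, adjusted p 0.0308) and Itgb1 (-1.05 ± 0.33, adjusted p 0.0247) were smaller, and each lost its call without at least 3 of the 4 single arrays. The count was 5 without the first female E17.5 array or without either female E13.5 array. The partner genes gave mixed counts: 2 tight junction partners were higher and 4 lower of 11, including Tjp3 (-2.54), and Klf8, known as a transcriptional repressor of Cdh1, was at least 5.30-fold lower (-4.43). Blood markers summed to 16.8 and 2.90 on the female E17.5 arrays, with 3 of 9 well above background on each: the red cell genes Hba-a1 and Alas2, which rose, and Spi1, a myeloid factor, which was at a mean of -4.10 in E17.5 and -4.06 in E13.5 females. Ptprc and Tyrobp (leukocyte), Pf4 and Gp9 (platelet), and Gata1 (red cell and megakaryocyte) were not well above background on either. In 2 other lists, 2 of 4 endothelial and 2 of 4 mesothelial and duct markers tested fell and none rose, beside the falls of Cldn5 and the epithelial claudins. Further lists went other ways. Of 3 steroid and interstitial markers 1 rose and none fell, and of 6 Sertoli and pregranulosa markers 1 rose and 1 fell. None of 4 fibroblast markers was called. The part of these cells in the members' levels was not tested.

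In males, 20 members were tested in E17.5 over E13.5 PGC, with 7 higher and 2 lower, or 45.0%, against 41.8% of all genes tested (29.5% higher and 12.3% lower), a share near the background. Cldn18, Itga2b, Cldn16, Cdh13, Itgb3, Cldn7 and Cldn6 rose, and Cdh1 and Cldn5 fell. Members had a median change of 1.16, and all tested genes one of 0.50. Under normexp correction 2 were higher and 2 lower.

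Cldn18 was at -1.72 and -1.26 in male E17.5 PGC, against -8.76 and -7.16 in male E13.5 PGC, where it was not well above background. It was at least 21.1-fold higher (6.47 ± 1.45, adjusted p 0.00234). Itga2b stood at -0.94 and -0.99 in male E17.5 PGC, against -5.34 and -5.63 in male E13.5 PGC, a change of 4.52 ± 0.43 (adjusted p 1.97e-06). For both members the later arrays were above the earlier ones, and Itga2b was measured on 1 of the 2 E13.5 arrays. Itgb3, the beta subunit with which Itga2b pairs in platelets, was at -2.55 and -2.67 in male E17.5 PGC, against -4.62 and -4.90 in male E13.5 PGC (2.15 ± 0.59, adjusted p 0.00837). Its second E13.5 array was not well above background, and the same holds for Cdh13 and Cldn7.

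Cldn16 was at least 3.17-fold higher (3.59 ± 0.77, adjusted p 0.0017), and its E17.5 arrays, at -4.22 and -4.22, were close to those of females. Cdh13, T-cadherin, which is held in the membrane by a lipid anchor, rose by 2.22 ± 0.50 (adjusted p 0.00227) and Cldn7 by 1.93 ± 0.41 (adjusted p 0.00165). Cldn6 rose by 1.45 ± 0.43 (adjusted p 0.0132, at least 1.39-fold) and lost its call without the first male E17.5 array (1.31, adjusted p 0.0797) or the second male E13.5 array (1.46, adjusted p 0.0508).

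Cdh1 was at -3.66 and -2.89 in male E17.5 PGC, against 0.61 and 0.76 in male E13.5 PGC. The stages were apart by more than 3 log2 units, and the change was -3.97 ± 0.43 (adjusted p 5.91e-06). Cldn5, a claudin of endothelium, was at -5.14 and -5.30 in male E17.5 PGC, against -2.34 and -2.19 in male E13.5 PGC (-2.95 ± 0.60, adjusted p 0.00111). Of 17 matrix ligands 9 rose and none fell, including Lama2 (4.43, at least 11.8-fold), and 6 of 10 integrin adaptors rose, including Lims2 (4.67, at least 9.79-fold). The desmosome plakophilin Pkp3 rose by 5.56, and Ctnna1, the catenin that connects cadherins to actin, changed by -1.19. Beside these, 5 of 11 Sertoli and 6 of 9 endothelial markers tested were higher at E17.5 and none lower. The Sertoli sum was 9.64 and 4.79 in male E17.5 PGC and 2.30 and 1.14 in male E13.5 PGC, and its part in the members' rise was not tested. Without the first male E13.5 array 12 members were called.

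The sexes were compared at the same stage to ask when the male and female patterns part. At E13.5, 15 members were tested in male over female PGC, with 2 higher and 3 lower, or 33.3%, against 12.2% of all genes tested (4.43% higher and 7.74% lower). Cdh1 and Cldn5 were higher in males, and Cldn7, Cldn6 and Itga2b were lower. The median over members was 0.43, and over all tested genes -0.13. The split was 2 higher and none lower under normexp correction and none higher and 3 lower in the deposited value table.

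Cdh1 was at 0.61 and 0.76 in male E13.5 PGC, against -1.52 and -0.80 in female E13.5 PGC (1.85 ± 0.43, adjusted p 0.0102). Cldn7 was at -5.85 and -6.01 in males, against -3.91 and -3.53 in females (-2.21 ± 0.41, adjusted p 0.00252). In both genes the sexes did not overlap, and Cldn7 was well above background on 1 of the 2 male arrays. Cldn5 was at -2.34 and -2.19 in males, against -4.15 and -4.16 in females (1.89 ± 0.60, adjusted p 0.0492; adjusted p 0.0549 with the replicate number as a block).

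Cldn6 was not well above background on either male array and was at least 1.92-fold lower in males (-1.92 ± 0.43, adjusted p 0.00798). Itga2b, measured on 1 of the 2 male arrays, changed by -1.37 ± 0.43 (adjusted p 0.0492), which is opposite to its sex difference at E17.5. Cldn11 had a difference of 2.17 with an adjusted p of 0.0942, with male arrays at -2.66 and -4.33 and female arrays at -5.82 and -5.51. Only the call of Cldn7 held without any one array: the count was 8 without the first male E13.5 array and 1 without the second male or the first female array. Of the partners, F11r, a junctional adhesion molecule, was higher in males (1.61) and Perp lower (-2.79). Sertoli markers were higher in 6 and lower in 1 of 10 tested, with sums of 2.30 and 1.14 in male and 0.271 and 0.255 in female E13.5 PGC, and their part was not tested.

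At E17.5, 21 members were tested in male over female PGC, with 11 higher and 2 lower, or 61.9%, against 49.4% of all genes tested (29.4% higher and 20.0% lower). The higher members came from all 3 families: 4 claudins (Cldn18, Cldn11, Cldn3, Cldn6), 4 integrin subunits (Itgb3, Itga2b, Itgb7, Itgb5) and 3 cadherins (Cdh13, Cdh23, Cdh20). Cdh1 and Itgb3bp, a nuclear and centromere protein named for its binding to the beta 3 tail, were lower. Over the members tested the median change was 1.59, and over all genes 0.27. Other scalings gave 11 higher and 4 lower (quantile), 8 and 3 (deposited value table) or 4 and none (normexp).

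Cldn18 was at -1.72 and -1.26 in male E17.5 PGC, against -7.99 and -8.97 in female E17.5 PGC, and was at least 31.0-fold higher (6.99 ± 1.45, adjusted p 0.000957). Itgb3 was at -2.55 and -2.67 in males, against -7.95 and -9.01 in females, and was at least 14.2-fold higher (5.87 ± 0.59, adjusted p 1.44e-06). Neither gene was well above background on any female E17.5 array. Cldn11 was at -2.56 and -2.89 in males, against -5.82 and -7.11 in females, and was at least 12.9-fold higher (3.74 ± 0.81, adjusted p 0.00131). Itga2b was at -0.94 and -0.99 in males, against -4.47 and -4.40 in females (3.47 ± 0.43, adjusted p 1.21e-05). Each of these 4 members separated the sexes without overlap.

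Itgb7 (at least 4.47-fold, 3.16 ± 0.53, adjusted p 0.000164) and Cldn3 (at least 3.14-fold, 2.76 ± 0.55, adjusted p 0.000736), neither well above background on a female array, were higher in males under every left-out array. So was Cdh13 (3.12 ± 0.50, adjusted p 0.000103), which 1 of the 2 female arrays measured. Cdh23, the cadherin of hair cell tip links, was at -4.62 and -4.79 in males, against -8.17 and -7.47 in females (3.11 ± 0.91, adjusted p 0.0102, at least 3.32-fold). Cdh1 was at -3.66 and -2.89 in males, against -2.16 and -1.38 in females (-1.51 ± 0.43, adjusted p 0.00852), so the sexes did not overlap and stood in the reverse order of E13.5. Itgb3bp was at -7.80 and -7.66 in males, against -5.52 and -4.68 in females (-2.63 ± 0.94, adjusted p 0.029, at least 2.47-fold lower). Cdh23 and Cdh1 each lost the call without either of 2 arrays, and Itgb3bp without any one of the 4. Itgb1 (0.79, adjusted p 0.0583) and Itga6 (0.35, adjusted p 0.514) did not pass.

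The partner lists leaned the same way, with 7 higher and 1 lower of 12 tight junction partners, 10 higher and none lower of 17 matrix ligands, and 6 higher and none lower of 10 integrin adaptors. Pkp3 was at least 68.9-fold higher in males (7.09), Jam2 at least 19.3-fold (5.52) and the laminin chain Lamb3 at least 8.38-fold (4.40). Markers of some other cells also separated the sexes. Higher in males were 8 of 11 Sertoli, 8 of 9 endothelial and 3 of 4 mesothelial and duct markers tested, and none was lower. Other lists did so little or not at all. Of 6 steroid and interstitial markers 1 was higher and none lower, and none of 6 fibroblast or 4 blood markers was called. The endothelial sum was 1.76 and 1.49 in male and 0.179 and 0.311 in female E17.5 PGC, and the mesothelial and duct sum 1.86 and 1.83 in males and 0.200 and 0.201 in females. On the male arrays Foxl2 and Lgr5, which mark pregranulosa cells, and the endothelial Kdr and Emcn were not well above background. Of the platelet genes, Pf4 was not well above background on either male array and Gp9 was on the first, and Gata1 of red cells and megakaryocytes was on both. What these cells contributed to the members' levels was not tested.

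Whether the stage change itself differed between the sexes was tested as an interaction, the male change minus the female change. Of 21 members tested, 6 were positive and 1 negative, or 33.3%, against 26.2% of all genes tested (16.3% higher and 9.87% lower), and quantile normalization gave 8 and 3 and normexp correction 1 and 1. The positive ones included Itga2b (4.85 ± 0.61, adjusted p 4.26e-05), Cldn7 (3.17 ± 0.58, adjusted p 0.000928) and Cdh13 (2.69 ± 0.70, adjusted p 0.00986), each of which the second male E13.5 array did not measure and Cdh13 also not the first female E17.5 array. Itgb3 (adjusted p 4.26e-05) and Cldn6 (adjusted p 0.000106) were not well above background on either female E17.5 array, and Cldn6 also on neither male E13.5 array. With these groups at their limits, the male change exceeded the female change by at least 23.0-fold for Itgb3 (fitted 6.56 ± 0.83) and at least 3.92-fold for Cldn6 (fitted 4.29 ± 0.61), so the fitted sizes set no order among them. Cldn6 and Cldn7 rose in males and fell in females. Itgb1 had a difference of 1.43 ± 0.47 (adjusted p 0.0342), which lost its call in 7 of the 8 fits without one array. Cdh1 was the negative one (-3.36 ± 0.61, adjusted p 0.00081), with a male change of -3.97. In these 6 comparisons among PGC, all 48 calls had the same sign within both scan days. Itga2b, for example, had a sex difference of 3.53 and 3.42 at E17.5 within the days, and Cdh1 one of -1.51 and -1.51. Each fitted change is the mean of the changes within the 2 days. Shared signs are thus likely among called members and are no separate evidence.

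The gonia were set against the last fetal stage of the same sex. Here slide, scan day and transgenic strain differ with the group and cannot be told apart from it. In spermatogonia over male E17.5 PGC, 21 members were tested, with 1 higher and 1 lower, or 9.5%, against 11.9% of all genes tested (5.11% higher and 6.81% lower). Normexp correction left the higher one alone and the deposited value table the lower one alone. Cdh1 was at -1.05 and -1.26 in spermatogonia, against -3.66 and -2.89 in male E17.5 PGC (2.12 ± 0.43, adjusted p 0.00669). Cdh23 was at -8.73 and -7.60 in spermatogonia, neither well above background, against -4.62 and -4.79 in male E17.5 PGC, and was at least 4.25-fold lower (-3.46 ± 0.91, adjusted p 0.0236). Groups did not overlap in either gene, but each call was lost without 1 or more single arrays: without the first spermatogonia array Cdh1 was at 2.01 (adjusted p 0.0973) and Cdh23 at -2.89 (adjusted p 0.242).

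Cldn18 was at -0.95 and -1.33 in spermatogonia and Itga2b at -1.80 and -1.84, levels that had no call against male E17.5 PGC. The Sertoli sum was 1.44 and 1.34 in spermatogonia, against 9.64 and 4.79 in male E17.5 PGC, with 6 of 11 markers tested lower. Among partners, Tjp1 changed by 1.58, Nectin2 by -2.11 and Lama1 by -2.71.

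In oogonia over female E17.5 PGC none of 17 members was called by limma, against 14.9% of all genes tested (4.53% higher and 10.4% lower). At an unadjusted p under 0.05 there were 3, namely Itgb1 (-0.98, adjusted p 0.0587), Itgb5 (-1.76, adjusted p 0.0687) and Itgax (-2.38), all lower in oogonia. Itgb1 was at -2.37 and -2.67 in oogonia, against -1.59 and -1.50 in female E17.5 PGC, and the groups did not overlap. The oogonia arrays differed from each other by a median of 0.53 over their 17 detected members, with Cldn5 at -4.56 and -7.07, and their blood markers summed to 3.88 and 0.210. Of the partners, 5 of 12 integrin adaptors were lower and none higher, including Bcar1 (-1.53), and Perp was higher (1.87).

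EG cells were compared with E13.5 PGC, the nearest sampled stage to their labelled source, to ask what differs between a pluripotent line and germ cells in the body. Strain, slide and scan day go with the group and cannot be told apart from it. Of 29 members tested, 7 were higher and 6 lower in EG cells, or 44.8%, against 40.3% of all genes tested (17.2% higher and 23.1% lower). Cldn4, Itgb7, Cldn6, Itga9, Cldn7, Cdh1 and Itga6 were higher, and the lower ones included Cldn11, Itgb3, Itgb2, Cldn5 and Itgb1. Members had a median change of -0.34, and all tested genes one of -0.19. Other scalings gave 8 higher and 4 lower (quantile), 7 and 3 (deposited value table) or 4 and 20 (normexp).

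Cldn4 was at -2.84 and -2.54 in male and -0.19 and -0.80 in female EG cells, against -9.12 and -7.30 in male and -8.87 and -10.26 in female E13.5 PGC. It was well above background on no E13.5 array and at least 31.5-fold higher in EG cells (7.30 ± 0.66, adjusted p 3.93e-07). Itgb7 was at -1.51 and -1.51 in male and -1.77 and -2.37 in female EG cells, against -4.48 and -4.56 in male and -5.93 and -5.57 in female E13.5 PGC (3.35 ± 0.37, adjusted p 3.26e-06). Cldn6 was at -2.15 and -2.48 in male and -3.29 and -2.67 in female EG cells, against -6.87 and -6.85 in male and -4.77 and -5.11 in female E13.5 PGC (3.25 ± 0.30, adjusted p 5.07e-07). In all 3 genes every EG array was above every PGC array, and Cldn6 on both male and Itgb7 on 1 female PGC array were not well above background.

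Cdh1 was at 1.32 and 1.35 in male and 0.80 and 1.54 in female EG cells, against 0.61 and 0.76 in male and -1.52 and -0.80 in female E13.5 PGC (1.49 ± 0.30, adjusted p 0.000894). The lowest EG array was only just above the highest male PGC array, and most of the distance was to female PGC. Cldn7 was higher by 1.81 ± 0.29 (adjusted p 0.000115), Itga9, an alpha subunit that binds tenascin and osteopontin, by 2.61 ± 0.90 (adjusted p 0.0281) and Itga6 by 0.82 ± 0.30 (adjusted p 0.0404). Itga9 was well above background on 1 of the 4 PGC arrays and Cldn7 on 3. Itga9 and Itga6 lost their calls without most single arrays, and Itga9 was at -0.41 under normexp correction.

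Cldn11 was at -9.54 and -9.58 in male and -11.13 and -11.77 in female EG cells, none well above background, against -2.66 and -4.33 in male and -5.82 and -5.51 in female E13.5 PGC. It was at least 31.7-fold lower (-5.93 ± 0.57, adjusted p 7.36e-07). Itgb3 was at -11.50 and -9.84 in male and -8.86 and -9.59 in female EG cells, against -4.62 and -4.90 in male and -4.08 and -4.05 in female E13.5 PGC (-5.53 ± 0.41, adjusted p 5.36e-08). Itgb3 was well above background on 1 of the 4 EG arrays, the first female one, and on 3 of the 4 PGC arrays, so its size is uncertain. Both genes separated the groups without overlap. Sertoli markers, 6 of 11 lower in EG cells and none higher, moved with Cldn11, and their part was not tested.

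Itgb1 (-0.75 ± 0.24, adjusted p 0.0184) and Cldn5 (-1.36 ± 0.42, adjusted p 0.0163) lost their calls without the first female EG array. Itgb2, the leukocyte beta subunit (-1.64 ± 0.57, adjusted p 0.0295), differed between the replicates of each EG line, at -6.67 and -8.47 in male and -6.49 and -9.54 in female cells, and the blood marker sums on the same arrays were 0.201, 0.0566, 0.216 and 0.0553. Without the second female EG array its change was -0.88 (adjusted p 0.182). Without the first female EG array 8 members were called. The matrix ligands Spp1 (6.55) and Nid1 (4.06) and the junctional molecule Jam2 (4.28) were higher, with 5 of 16 matrix ligands higher and none lower. Mpdz (-2.93), Crb3 (-2.62) and the focal adhesion kinase gene Ptk2 (-1.84) were lower.

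**Figure D3:**
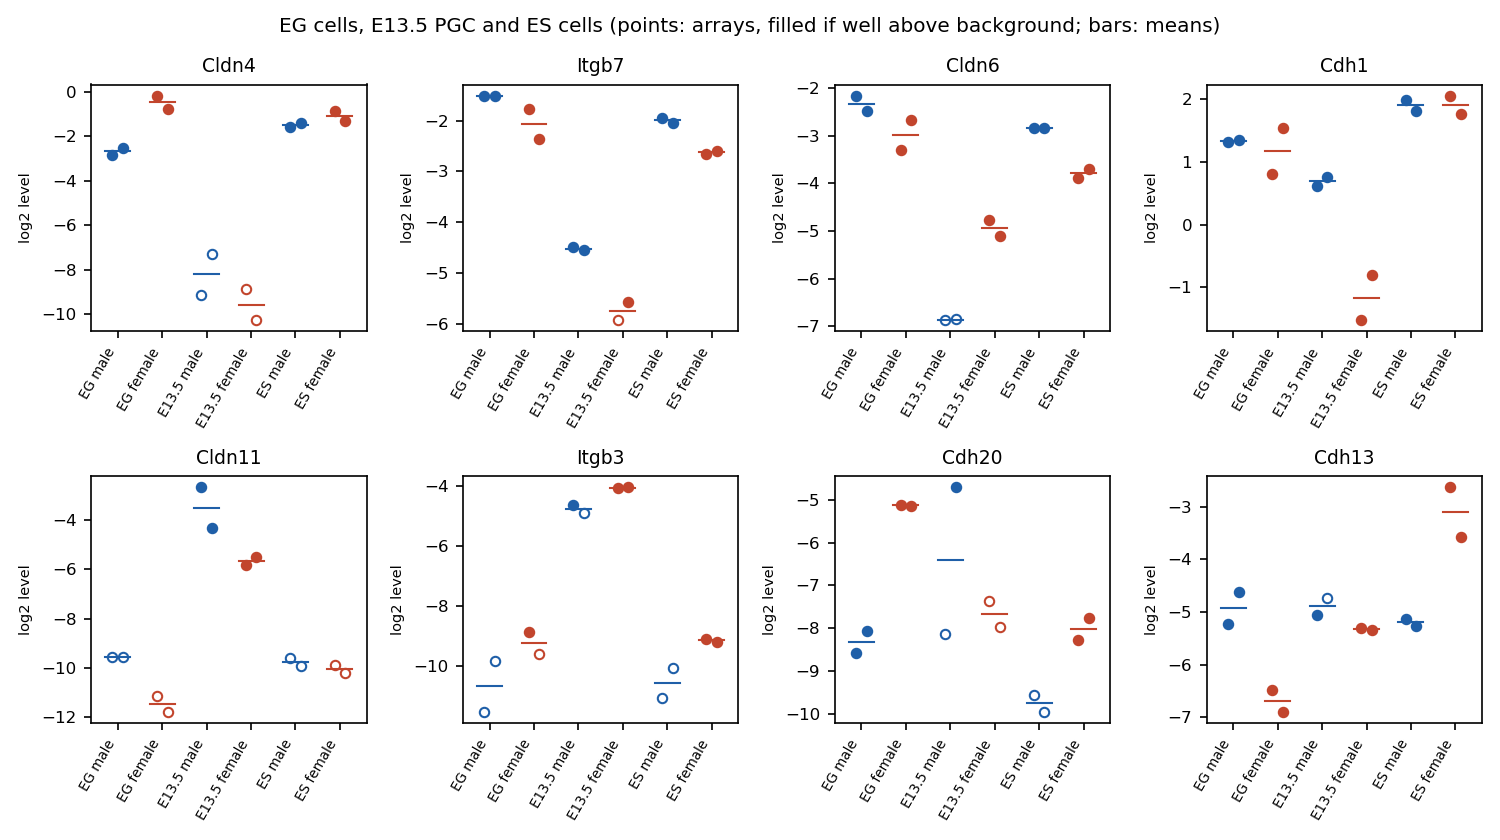
Log2 level of 8 members on each EG, E13.5 PGC and ES array (vertical axis; points are arrays, filled where well above background, bars are means of 2 arrays, blue is male and red female). Cldn4, Itgb7 and Cldn6 lie higher on every EG and ES array than on every E13.5 PGC array, and Cldn11 is open on all EG and ES arrays.

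EG and ES cells are both pluripotent lines of different origin. Strain, slide and scan day differ between them as well and cannot be told apart from the group. Few members separated EG from ES cells, and few genes of any kind did. Of 30 members tested, 1 was higher and 1 lower in EG cells, or 6.7%, against 4.93% of all genes tested (3.37% higher and 1.55% lower), a share near the background. Cdh20 was at -8.59 and -8.07 in male and -5.12 and -5.15 in female EG cells, against -9.57 and -9.95 in male and -8.28 and -7.76 in female ES cells (2.16 ± 0.52, adjusted p 0.0273). The male ES arrays were not well above background. The groups overlapped, since the male EG arrays lay within the range of the ES arrays, and the female EG arrays stood apart. Cdh13 was at -5.22 and -4.62 in male and -6.48 and -6.89 in female EG cells, against -5.14 and -5.26 in male and -2.63 and -3.56 in female ES cells (-1.66 ± 0.35, adjusted p 0.0137). Here too the male lines overlapped, and the female ES line was the high one.

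Each call was lost without 1 or more single arrays, and both were lost with the slide as a random block (Cdh20 adjusted p 0.762, Cdh13 adjusted p 0.711). Cldn4 was at -2.84 to -0.19 in EG cells and at -1.59 to -0.87 in ES cells, and Cdh1 at 0.80 to 1.54 in EG cells and at 1.77 to 2.05 in ES cells, with no call for either. The laminin chain Lama1 (2.40) and the kindlin gene Fermt3 (1.24) were higher in EG cells.

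GS cells were set against uncultured spermatogonia, again on separate slides, days and strains that cannot be told apart from the groups. Of 38 members tested, 6 were higher and 10 lower in GS cells, or 42.1%, against 23.0% of all genes tested (10.8% higher and 12.3% lower). The lower members were mostly claudins: Cldn18, Cldn7, Cldn16, Cldn11, Cldn5 and Cldn6 fell with Cdh20, Cdh1, Itga2b and Itgb3. Itgbl1, Cdh11, Itga8, Itgb5, Cdh13 and Cldn12 were higher. The median over members was -0.48, and over all tested genes 0.02. Under normexp correction 1 was higher and 28 were lower.

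Cldn18 was at -9.28 and -9.58 in GS cells, against -0.95 and -1.33 in spermatogonia, the largest change of any called member in this comparison (-8.29 ± 1.45, adjusted p 0.000768). Cldn7 was at -7.87 and -8.96 in GS cells, against -3.85 and -3.27 in spermatogonia (-4.85 ± 0.41, adjusted p 1.71e-06). Cldn16 was at -9.10 and -9.35 in GS cells, against -4.35 and -4.62 in spermatogonia (-4.74 ± 0.77, adjusted p 0.000422). Each of these claudins was well above background on all 4 arrays, and the groups were over 4 log2 units apart.

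Cdh20 was at -9.38 and -9.49 in GS cells, against -4.97 and -5.13 in spermatogonia (-4.38 ± 0.74, adjusted p 0.000571). Cdh1 was at -4.75 and -3.52 in GS cells, against -1.05 and -1.26 in spermatogonia (-2.98 ± 0.43, adjusted p 0.000164). Cldn11 was at -6.33 and -8.24 in GS cells, against -3.33 and -3.56 in spermatogonia (-3.84 ± 0.81, adjusted p 0.0029). In these 3 the groups also did not overlap, and with Cldn18, Cldn7, Cldn16 and Cldn12 they kept their calls without any one array. Itga2b (-1.89 ± 0.43, adjusted p 0.00513) and Cldn5 (-1.93 ± 0.60, adjusted p 0.0282) did not. Markers of other cells were lower in GS cells too, and none of these lists had a higher one: 5 of 13 Sertoli, 5 of 10 endothelial, 3 of 4 mesothelial and duct and 4 of 6 blood markers tested. The Sertoli sum was 1.88 and 0.357 in GS cells and 1.44 and 1.34 in spermatogonia, the endothelial sum 1.85 and 0.917 in GS cells and 1.74 and 1.70 in spermatogonia, and the mesothelial and duct sum 0.102 and 0.197 in GS cells and 1.43 and 1.40 in spermatogonia. Their part in the lower members was not tested.

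Of the 6 higher members, 5 depended on 1 GS array. Itgbl1, a gene related to the beta subunits, was at -0.77 and -6.54 in GS cells, against -8.40 and -9.24 in spermatogonia (5.17 ± 1.45, adjusted p 0.017, at least 8.81-fold). Cdh11, the cadherin of mesenchyme, was at -2.03 and -4.51 in GS cells, against -8.27 and -7.48 in spermatogonia (4.61 ± 1.46, adjusted p 0.0317, at least 11.5-fold). Itga8, an alpha subunit of mesenchyme that binds nephronectin, was at -2.48 and -5.48 in GS cells, against -8.60 and -8.28 in spermatogonia (4.46 ± 1.02, adjusted p 0.00514, at least 7.06-fold).

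In each of these 3 the first GS array was far above the second, and neither spermatogonia array was well above background. Without the first GS array the changes were 2.28 for Itgbl1 (adjusted p 0.31), 3.37 for Cdh11 (adjusted p 0.256), 2.96 for Itga8 (adjusted p 0.0997), 1.34 for Itgb5 (adjusted p 0.203) and 0.49 for Cdh13 (adjusted p 0.569), and 1 higher and 8 lower members were called. Cldn12, at -2.49 and -2.38 in GS cells against -3.84 and -3.79 in spermatogonia (1.39 ± 0.32, adjusted p 0.00548), held. The fibroblast markers summed to 25.2 on the first and 2.39 on the second GS array, with all 8 well above background on both, against 1.85 and 1.67 in spermatogonia. None of the 8 passed the test, and their part in the members' levels was not tested. Of 18 matrix ligands 9 were higher and none lower, led by Spp1 (6.36), Tnc (4.73) and Fn1 (4.67), and of 13 tight junction partners 1 was higher and 6 lower, including Marveld3 (at least 29.3-fold lower, -4.91). Pkp1 (-5.70) and Ctnna3 (-4.95) were lower.

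**Figure D4:**
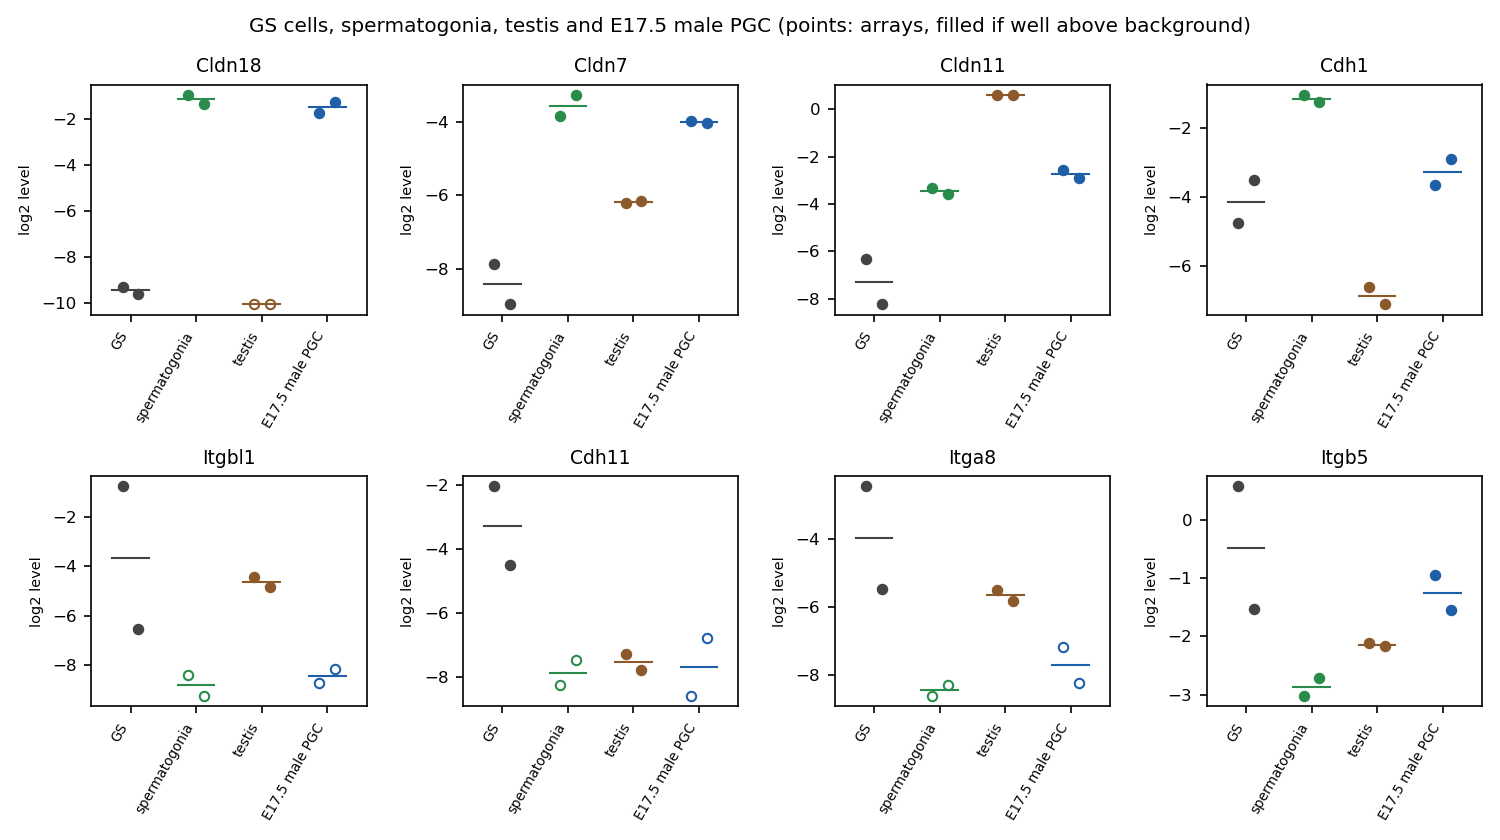
Log2 level of 8 members on each array of GS cells, spermatogonia, testis and male E17.5 PGC (vertical axis; points are arrays, filled where well above background, bars are means of 2 arrays). Cldn18, Cldn7 and Cdh1 are lower in GS cells than in spermatogonia on every array, and the GS arrays lie far apart for Itgbl1, Cdh11 and Itga8.

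The testis holds GS cells' counterparts among Sertoli cells, interstitial cells and later germ cells, and it shared a slide with GS cells. The mouse strains of GS cells and testis differ, so strain cannot be told apart from the group. Of 43 members tested, 13 were higher and 11 lower in GS cells, or 55.8%, against 46.3% of all genes tested (19.5% higher and 26.8% lower). Among the higher were Cdh11, Itgb7, Itga5, Itga4, Cldn4, Itgb1 and Cdh1, and among the lower Cldn11, Itgad, Itgae, Itga2, Cldn13 and Cdh23. Over the members tested the median change was 0.57, and over all genes -0.15. The deposited value table gave 18 higher and 10 lower.

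Cldn11 was at -6.33 and -8.24 in GS cells, against 0.59 and 0.61 in testis (-7.89 ± 0.81, adjusted p 8.66e-07). Itgae, the alpha subunit of the E-cadherin receptor of lymphocytes, was at -8.21 and -8.00 in GS cells, against -0.88 and -0.85 in testis (-7.24 ± 0.97, adjusted p 1.36e-05). In both genes the groups were over 6 log2 units apart and the testis arrays almost coincided. Itgad (-7.73 ± 1.19, adjusted p 5.28e-05) stood at -1.90 and -2.04 in testis. Itga2, a collagen receptor subunit (-6.88 ± 1.28, adjusted p 0.000306), stood at -4.00 and -3.98 there, and Cldn13, at -5.09 and -5.07, was at least 36.4-fold lower in GS cells (-6.80 ± 1.26, adjusted p 0.000318). Itgad, Itga2 and Cldn13 were seen on both arrays of no group but testis. Itgad and Itga2 were not well above background on the first GS array. Cdh23 (-4.47), Cdh26 (-4.37, measured on 1 of the 2 GS arrays) and Itgb3bp (-3.80) were lower as well. The spermatid markers summed to 0.0223 and 0.0731 in GS cells and to between 28.1 and 29.1 in testis. Of 13 Sertoli markers tested, 7 were lower in GS cells and 3 higher. In 2 lists none was higher, with 4 of 7 steroid and interstitial and 6 of 8 blood markers lower. Endothelial markers went both ways, with 4 lower and 2 higher of 11. Of 5 mesothelial and duct markers 3 were higher and none lower. The blood sum was 0.0444 and 0.0360 in GS cells and 0.705 and 0.647 in testis. The part of these cells in the lower members was not tested.

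Itgb1 was at 0.56 and -0.60 in GS cells, against -2.99 and -3.13 in testis (3.04 ± 0.33, adjusted p 1.7e-06). Itgb7 was at -4.53 and -3.00 in GS cells, against -7.32 and -7.83 in testis (3.81 ± 0.53, adjusted p 1.85e-05). Cdh1 was at -4.75 and -3.52 in GS cells, against -6.60 and -7.10 in testis (2.71 ± 0.43, adjusted p 6.83e-05). All 3 separated the groups and kept their calls without any one array, as did Itgb1bp2, a muscle protein that binds the beta 1 tail (3.74 ± 0.97, adjusted p 0.0047, at least 3.17-fold). Cdh11 (4.26 ± 1.46, adjusted p 0.0247), Itga5, the fibronectin receptor alpha subunit (3.71 ± 1.27, adjusted p 0.0244), Itga4 (3.47 ± 1.22, adjusted p 0.0286) and Cldn4 (3.21 ± 0.94, adjusted p 0.0101) each lost the call without at least 1 array, and Itga5, Itga4 and Cldn4 were measured on 1 of the 2 testis arrays. The fibroblast markers, 4 higher and none lower of 8 tested, moved with Cdh11, and their part was not tested. Of 18 matrix ligands 11 were higher and 1 lower, with Spp1 at 8.99, Fn1 at 6.03 and Lamb3 at -5.11. Icam1, a ligand of leukocyte integrins, was higher by 5.32, and Ctnna3 (-10.11) and Cgnl1 (-5.29) were lower. Cldn18 was not well above background in testis. The Sertoli sum there was 10.9 and 10.7, and the part of Sertoli cells in Cldn18 levels was not tested.

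**Figure D5:**
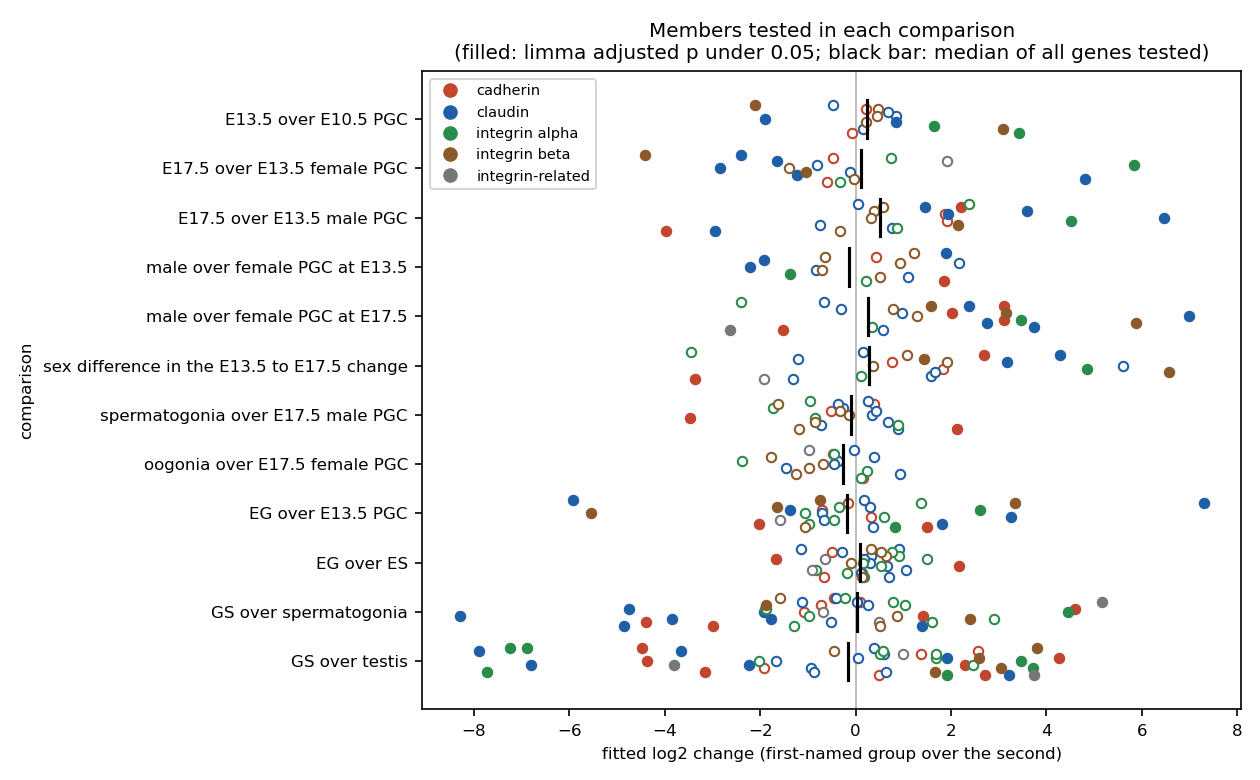
Fitted log2 change (horizontal axis, first-named group over the second) of every member tested in each of the 12 comparisons, coloured by family and filled at a limma adjusted p under 0.05, with a black bar at the median of all genes tested. Filled points are most numerous for GS cells over testis (24 of 43) and absent for oogonia over female E17.5 PGC (0 of 17).

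These comparisons share arrays, so their counts are not independent: male E17.5 PGC enter 4 of them and GS cells 2. The values of single members can be set side by side. Cldn18 was at least 21.1-fold higher in E17.5 over E13.5 males and at least 31.0-fold higher in males over females at E17.5, and changed by -8.29, measured on all arrays, in GS cells over spermatogonia. Cdh1 changed by -3.97 in E17.5 over E13.5 males, by 2.12 in spermatogonia over male E17.5 PGC and by -2.98 in GS cells over spermatogonia. Itgb3 was at least 5.19-fold lower in females and changed by 2.15 in males over the same stages.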

How the data were processed

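Per the labels' protocols, 50 ng of RNA was labelled with Cy3 for one-colour arrays. The deposited scanner files hold spot intensity from Agilent Feature Extraction 10.5.1.1, per the file headers. The deposited value table holds log2 of the same processed signal minus each array's median (largest departure 2.53e-06; column medians -7.34e-05 to 0.00251). Of 43803 probes without controls, 514 non-uniform ones were left out. RefSeq accessions gave symbols to 16760 probes, and the brightest probe stood for a gene. The log2 processed signal was scaled to each array's 75th percentile over 7227 probes well above background everywhere, and 14 group means were fitted with limma 3.58.1 in R 4.3.3 (14 residual degrees of freedom, Benjamini-Hochberg adjusted p 0.05). A gene was tested where well above background on both arrays of a compared group. On simulated data for GS cells over spermatogonia (26023 genes), 37% of planted log2 changes of 2 were recovered. Of planted changes of 1, 0% were recovered, and there were 3 false calls. Only 200 genes were changed there, against 5993 called in the real comparison. The adjusted p is stricter in that setting, so these rates do not carry over to the real arrays. No spot was saturated. Precision is limited by the 2 arrays in a group.

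Named members were up to 8 higher and 8 lower by size in each comparison, plus members well studied in these cells. The members and lists were chosen with earlier results of these data known. Same-numbered PGC arrays deviated together from their group means (15 pairs, correlation 0.31 to 0.80) and shared a scan day, so their numbers pair them. Alternatives were the scaling, the background correction, the probe rule, the filter on dim probes, the groups fitted, slide, scan day and replicate number as blocks, and leaving out single arrays.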

Additional observations from a re-analysis of the deposited data

Results flagged for a closer look

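The stage change between E13.5 and E17.5 differed between male and female PGC for 7 members, by the interaction term of the limma fit (male change minus female change, log2). Itga2b differed by 4.85, Cldn7 by 3.17, Cdh13 by 2.69 and Itgb1 by 1.43. The fitted differences of Itgb3 (6.56) and Cldn6 (4.29) rest on female E17.5 arrays, and for Cldn6 also male E13.5 arrays, that were not well above background, and with these at their limits the differences were at least 23.0-fold and at least 3.92-fold. Cdh1 differed by -3.36, being higher in males than in females at E13.5 and lower at E17.5.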

How the results depend on the processing

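For 91 named changes, 1336 alternative values were computed: 1095 kept the direction and the call, 237 lost the call and 4 turned sign. The 4 were all under normexp background correction: Itga2b (-0.19) and Cldn12 (-0.20) in E13.5 over E10.5 PGC, Cldn6 (0.21) in male over female PGC at E13.5, and Itga9 (-0.41) in EG over E13.5 PGC. Other scalings moved the median of all tested genes by over 0.1 in 8 to 11 of 12 comparisons, within -1.51 to 0.59, and taking the mean of a gene's probes in none. The cause of the shifts in counts was not tested.

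Members called moved as follows. Normexp correction gave 2 in E17.5 over E13.5 females, 4 in E17.5 over E13.5 males, 2 and 4 in males over females at E13.5 and E17.5, 2 for the interaction, 1 for spermatogonia, 2 for oogonia, 24 for EG over E13.5 PGC, 0 for EG over ES and 29 for GS over spermatogonia. Fitting only the compared groups, which leaves fewer arrays to estimate the spread, gave 1 in E13.5 over E10.5, 4 and 0 in E17.5 over E13.5 females and males, 0 in males over females at E13.5, 0 for spermatogonia, 5 for EG over ES and 9 for GS over spermatogonia. The deposited value table gave 5 in E17.5 over E13.5 females, 3 in males over females at E13.5, 1 for spermatogonia and 10 for GS over spermatogonia. Without the filter on dim probes there were 5 in E17.5 over E13.5 females, 3 in males over females at E13.5, 1 for spermatogonia, 1 for oogonia and 35 for EG over E13.5 PGC. The mean of all probes gave 3 in males over females at E13.5. Quantile normalization gave 11 and the slide as a block 12 for the interaction, and quantile normalization 2 for oogonia. The slide as a random block (correlation 0.377) gave 1 for spermatogonia, 8 for EG over E13.5 PGC, 0 for EG over ES and 8 for GS over spermatogonia.

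Leaving out 1 array at a time gave 5 to 7 calls in E13.5 over E10.5, 5 to 6 and 8 to 12 in E17.5 over E13.5 females and males, 1 to 8 and 9 to 10 in males over females at E13.5 and E17.5, 6 to 9 for the interaction, 0 to 1 for spermatogonia, 0 to 1 for oogonia, 8 to 14 for EG over E13.5 PGC, 0 to 1 for EG over ES, 9 to 14 for GS over spermatogonia and 20 to 27 for GS over testis. A lone array was assumed to vary like the other groups. The replicate block, by which the PGC arrays are paired, gave 6, 7, 9, 4, 12, 7, 2, 0, 13, 2, 16 and 24 calls in the order of the comparisons in the report, and changed 2 named calls, both of Cldn5.

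Faint members are the limit of these arrays: 11 of 55 members were well above background on both arrays of no group, and in E10.5 PGC 3 to 5 members were. With 2 arrays a group, a member without a call may still differ. The simulation for GS cells over spermatogonia did not recover a log2 change of 1. It changed far fewer genes than were called in the data, so it sets no limit for these members.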
